A study of Mus musculus with 4 samples.

Results

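Enterocytes are the absorptive cells that line the villi of the small intestine. The cells described here are the barcodes to which the authors gave the class Enterocyte, and which carried their passing quality flag, in a library of single cells (singlets) from mouse small intestinal epithelium. There were 191 of them among 5279 singlets, a share of 3.62% (exact Clopper-Pearson interval 3.13% to 4.16% at the 95% level). The series holds 4 droplet libraries, singlets and multiplets (attached cells that share a droplet) from small intestine and from lung. All come from C57BL/6J mice, an inbred strain, with no treatment named. Per the labels, cells were freed by mechanical and enzymatic dissociation, and the droplet chemistry was 10x Chromium version v3 for 3′ ends. Each captured transcript gets a unique molecular identifier (UMI) near its 3′ end, so that a level is a count of tagged molecules and is not scaled by transcript length. The labels name no separate animals, no region of the small intestine and no replicate library. Every difference below is therefore a description of 1 library, without a test, and the intervals cover counting error only.

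An enterocyte differentiates while it moves from the crypt, where stem cells and dividing transit amplifying cells lie, up the villus to the tip, where it is shed. Its apical microvilli, the brush border, carry the hydrolases that finish digestion and the transporters that take up sugars, amino acids and fatty acids. Inside the cell, fatty acids are bound by small carrier proteins, rebuilt into triglyceride and exported on apolipoproteins as chylomicrons. Enterocytes differ along the gut: the proximal intestine handles most fat, sugar and iron, while the ileum takes back bile acids.

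The authors' other 9 classes served for comparison: late-2 progenitors (203 cells), late-1 progenitors (728), early progenitors (1162), transit amplifying cells (1048), stem cells (587), goblet cells (985), Paneth cells (88), enteroendocrine cells (175) and tuft cells (112). The median enterocyte held 11039 UMIs from 2873 genes, and the median of all other singlets 8702 UMIs from 2718 genes. Mitochondrially encoded transcripts made up a median of 6.60% of enterocyte UMIs, against 4.28% in the other singlets, and 18 enterocytes (9.42%) were above 15%. Enterocyte counts summed to 2003859 UMIs. Levels are given as CPM, the UMIs of a gene per 1000000 UMIs of the class, and a count of 0 allows a level of up to 3 counts. Of 4 barcodes that the singlet library shared with the intestinal multiplet library, 0 were enterocytes.

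All 4 markers of enterocytes were over 2-fold higher in the class than in any other, from 2.20-fold above the next class for Sis (interval 2.08 to 2.32) and 3.30-fold for Alpi (3.01 to 3.62) to 43.1-fold for Apoa4 (39.5 to 47.0). Alpi, intestinal alkaline phosphatase of the brush border (chr1:87098002-87101606 in GRCm38, minus strand), stood at 458 CPM in enterocytes, against 20.4 in late-2 and 139 in late-1 progenitors and 25.8 in all other singlets. Apoa1, an apolipoprotein of chylomicrons and high density lipoprotein (chr9:46228580-46230466, plus strand), stood at 16035 CPM in enterocytes, against 685 in late-2 and 2116 in late-1 progenitors. Apoa4, a chylomicron apolipoprotein that lies close to Apoa1 (chr9:46240696-46243459, plus strand), stood at 3651 CPM in enterocytes, against 4.21 in late-2 and 84.8 in late-1 progenitors. These levels exceeded those of all other singlets 17.7-fold for Alpi (interval 16.3 to 19.4), 45.1-fold for Apoa1 (44.3 to 46.0) and 217-fold for Apoa4 (201 to 234). Sis, sucrase-isomaltase (chr3:72888557-72967863, minus strand), was shared most with the progenitors: 2277 CPM in enterocytes, against 1037 in late-2 and 984 in late-1 progenitors, 10.1-fold above all other singlets (9.75 to 10.5). The summed markers ranged from 5109 to 53465 CPM over single enterocytes with a median of 22245 CPM. Apoa1 had a UMI in 100% of enterocytes, Apoa4 and Sis in 99.5% and Alpi in 89.5%.

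**Figure D1:**
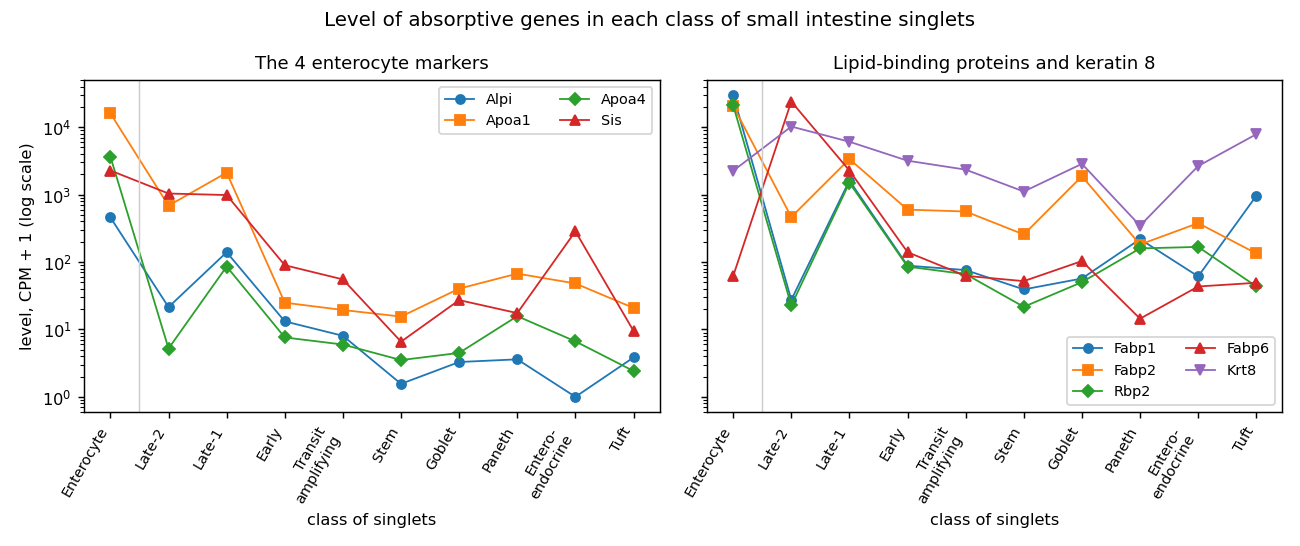
Level (CPM + 1, log scale) of the 4 markers (left) and of lipid-binding proteins and keratin 8 (right) in enterocytes, left of the grey line, and in the 9 other classes; each point is the sum over all cells of a class. Apoa4 drops from 3651 CPM in enterocytes to 84.8 in late-1 progenitors, Fabp6 stands at 60.9 CPM in enterocytes and 24030 in late-2 progenitors, and Krt8 is lower in enterocytes than in both late progenitor classes.

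Transcripts of the other epithelial classes were low in enterocytes, and 1 cell held most of the goblet and 1 most of the enteroendocrine marker UMIs. Tuft markers had 1 UMI in all. Lymphocyte and erythroid markers had 0, but only 3 of 10 and 2 of 4 of these genes were present in the deposited counts. M cell, myeloid and stromal markers, with 3 of 4, 3 of 6 and 3 of 6 genes present, stood at 2.00, 0.998 and 3.99 CPM in sum. Enteroendocrine markers summed to 313 CPM in enterocytes, against 1277 in all other singlets, but 1 enterocyte held 582 of the 627 UMIs (92.8%), including all 372 UMIs of Gcg, the proglucagon gene, and all 159 of Cck, the cholecystokinin gene. Without that cell the list stood at 22.6 CPM. The same cell carried 110 UMIs of the 4 enterocyte markers, against a median of 232 per enterocyte. Another enterocyte held 1265 of 1902 goblet marker UMIs (66.5%), and it was the single enterocyte that Scrublet, a doublet caller, marked among 74 of 5279 singlets (1.40%). Another cell held 325 of 997 Paneth marker UMIs (32.6%), and the deepest cell of the class, with 22781 UMIs, held 185 of 530 stem marker UMIs (34.9%). These cells were kept, as the authors' class calls have them. Without them and the cell highest in Fabp6 (5 cells in all), the summed goblet, Paneth, enteroendocrine and stem markers stood at 0.0115, 0.0105, 0.0175 and 0.0483 of the level in all other singlets.

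Against all other singlets, 11501 genes had at least 50 UMIs in either group. Of these, 1183 (10.3%) were more than 2-fold higher in enterocytes and 4467 (38.8%) more than 2-fold lower. All 11501 had a median of -0.54 on the log2 scale. The whole counting interval lay past 2-fold for 831 of the higher and 1854 of the lower genes. The split depended on scaling: scaled to class totals 20.9% of the calls were higher, while with TMM factors (edgeR's trimmed mean scaling), which moved every log2 ratio up by 0.31, 31.2% were. Of 4197 genes with at least 50 enterocyte UMIs, 292 (6.96%) were over 2-fold above every other class, and these are called led by enterocytes below. The class next to them was late-1 progenitors for 203 of the 292 (69.5%) and late-2 progenitors for 33 (11.3%).

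Of the genes that reached 100 CPM in enterocytes or in all other singlets, the largest ratios to all other singlets belonged to Aqp8, Cyp2b10, Cyp3a11, Apoa4 and Leap2. Aqp8, an aquaporin, stood at 227 CPM in enterocytes, against 0.393 in all other singlets (576-fold, 360 to 981). Its UMIs were spread unevenly over the cells: 60.2% of enterocytes had at least 1, the median was 92.6 CPM and the highest cell had 2559 CPM. Cyp2b10, a cytochrome P450 of drug metabolism, stood at 335 CPM, against 1.20 in all other singlets (279-fold, 212 to 374). Leap2, which encodes an antagonist of the ghrelin receptor, stood at 556 CPM, against 4.04 in all other singlets (138-fold, 118 to 162). Further genes among the 20 highest were Slc2a2, Lct, Bst1, Rbp2, Dnase1, Sult6b2, Treh, Apoc3, Gda, Ggt1, Reg1, Gsta1, Papss2 and Akr1b7, all between 51.8-fold and 81.4-fold. Fabp1, the liver-type fatty acid binding protein, completed the set at 96.6-fold.

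HNF4, CDX and GATA factors are known regulators of enterocyte genes. The promoters of 5 genes led by enterocytes, Alpi among the markers and 4 of the 20 above, are shown as examples that hold a word of these factors, and were picked for that. Each runs 5′ to 3′ from 250 bases before to 50 bases after a transcript start in RefSeq on GRCm38.p6, in lower case. For Rbp2 that start lies inside the gene as GENCODE draws it (chr9:98486115-98509781 in GRCm38, plus strand), so the window is not upstream of the GENCODE gene. Capitals mark matches on either strand. For HNF4 the word searched was CAAAGTCCA. The CDX factors were represented by TTTATNG, a shorter word and so a more frequent one in any promoter. GATA factors were represented by AGATAA.

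Alpi, chr1:87101557-87101856, minus strand: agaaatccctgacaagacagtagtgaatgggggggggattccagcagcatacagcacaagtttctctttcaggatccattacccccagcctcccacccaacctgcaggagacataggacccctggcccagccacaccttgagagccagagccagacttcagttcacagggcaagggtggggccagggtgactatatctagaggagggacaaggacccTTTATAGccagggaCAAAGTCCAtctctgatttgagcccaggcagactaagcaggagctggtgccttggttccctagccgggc

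Fabp1, chr6:71199629-71199928, plus strand: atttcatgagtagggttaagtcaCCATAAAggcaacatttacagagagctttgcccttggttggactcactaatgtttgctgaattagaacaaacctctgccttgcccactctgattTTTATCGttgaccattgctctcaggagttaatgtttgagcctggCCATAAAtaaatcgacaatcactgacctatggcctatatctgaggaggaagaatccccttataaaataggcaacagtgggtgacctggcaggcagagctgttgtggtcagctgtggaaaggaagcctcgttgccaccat

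Rbp2, chr9:98490287-98490586, plus strand: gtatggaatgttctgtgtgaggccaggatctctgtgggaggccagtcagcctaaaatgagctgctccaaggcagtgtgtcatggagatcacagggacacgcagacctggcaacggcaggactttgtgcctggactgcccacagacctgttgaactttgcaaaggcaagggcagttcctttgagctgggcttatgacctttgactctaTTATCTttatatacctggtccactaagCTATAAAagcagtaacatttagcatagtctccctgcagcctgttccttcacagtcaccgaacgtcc

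Cyp3a11, chr5:145879805-145880104, minus strand: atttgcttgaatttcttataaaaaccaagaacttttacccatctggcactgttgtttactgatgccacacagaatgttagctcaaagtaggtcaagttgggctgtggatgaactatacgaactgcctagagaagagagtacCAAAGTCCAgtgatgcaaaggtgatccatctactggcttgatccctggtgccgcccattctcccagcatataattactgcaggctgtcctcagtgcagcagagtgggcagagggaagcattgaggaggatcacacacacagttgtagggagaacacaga

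Treh, chr9:44672983-44673282, plus strand: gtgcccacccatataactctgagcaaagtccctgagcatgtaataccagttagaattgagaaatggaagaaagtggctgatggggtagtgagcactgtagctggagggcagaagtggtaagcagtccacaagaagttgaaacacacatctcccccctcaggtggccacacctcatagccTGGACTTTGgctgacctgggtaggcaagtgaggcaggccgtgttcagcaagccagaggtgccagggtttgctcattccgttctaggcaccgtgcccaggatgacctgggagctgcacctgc

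The Alpi promoter held an HNF4 word 19 bases and a CDX word 33 bases before the start, the Fabp1 promoter held 3 CDX words (227, 133 and 89 bases before it) and the Rbp2 promoter a CDX word at 16 and a GATA word at 43 bases. Cyp3a11 and Treh each held an HNF4 word, 109 and 71 bases before the start. Among the 292 genes led by enterocytes, 235 had at least 1 promoter in the table, 314 promoters in all, and 13 of these (4.14%) held the HNF4 word. The share was 0.506% of 11459 promoters of all counted genes and 0.475% of all 32851 promoters of the same length. The CDX word was in 14.0% of promoters of the led genes, against 6.96% for counted genes and 10.9% of all promoters, and the GATA word in 12.1%, against 6.64% and 11.2%. GTTAATNAT (HNF1) was in 0.955%, against 0.480% and 0.801%. A match is a string of letters and not a bound site, and the promoters of Apoa1, Apoa4, Fabp6, Slc2a2 and Dnase1 held none of the 4 words in this window.

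Of the function lists, fat absorption had the highest summed level in enterocytes. All 20 counted genes of its list were over 2-fold higher in enterocytes than in all other singlets, 14 were led by enterocytes, the median log2 ratio was 3.78 and the list summed to 81388 CPM in enterocytes, against 2975 in all other singlets. Fabp1 stood at 30214 CPM in enterocytes, against 26.5 in late-2 and 1613 in late-1 progenitors, and it was the most abundant nuclear-encoded transcript of the class. Over single enterocytes it ranged from 6158 to 63199 CPM with a median of 28556. Fabp2, the intestinal fatty acid binding protein, stood at 20679 CPM in enterocytes, against 464 in late-2 and 3367 in late-1 progenitors. The enzymes that rebuild triglyceride differed less: Mogat2 (621 CPM) was 16.5-fold, Dgat2 (135 CPM) 13.3-fold and Dgat1 (909 CPM) 6.09-fold above all other singlets. Mttp, which loads lipid onto apolipoprotein B, was 18.2-fold higher at 1371 CPM, and Apob itself 16.6-fold at 1508 CPM. The smallest difference was that of Plin2, a coat protein of lipid droplets, at 2.26-fold. Cd36, a fatty acid receptor, was low at 46.9 CPM but 36.4-fold above all other singlets (26.0 to 51.3).

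Retinoid genes were carried by 1 transcript. Rbp2, which binds retinol in the enterocyte, stood at 21151 CPM in enterocytes, against 21.6 in late-2 and 1500 in late-1 progenitors, and supplied most of the list's 23190 CPM. Of 12 counted genes of retinoid and vitamin uptake, 9 were higher and 2 lower. Rdh7, a retinol dehydrogenase, was 15.1-fold and Aldh1a1, a retinal dehydrogenase, 42.0-fold above all other singlets, and Slc46a1, the intestinal folate transporter, 21.5-fold. Bco1, which cleaves β-carotene, had 0 UMIs, and Slc52a3, a riboflavin transporter, stood at 2.99 CPM in enterocytes, against 11.4 in all other singlets.

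Sugar genes were higher throughout. All 9 counted genes of sugar transport and fructose metabolism were over 2-fold higher in enterocytes and 8 were led by them, with a median log2 ratio of 3.06. Slc5a1, the apical sodium-glucose cotransporter, stood at 824 CPM in enterocytes, against 185 in late-2 and 230 in late-1 progenitors. Slc2a2, the basolateral glucose transporter GLUT2, separated the classes more: 338 CPM in enterocytes, against 1.80 in late-2 progenitors and 4.15 in all other singlets. Slc2a5, the fructose transporter, stood at 51.4 CPM, against 2.67 in all other singlets (19.3-fold, 14.7 to 25.3). Khk, fructokinase, was 7.80-fold above all other singlets. G6pc, the catalytic subunit of glucose-6-phosphatase, was 36.1-fold higher at 69.4 CPM.

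Most brush border hydrolases were higher. Of 12 counted peptidases, 9 were over 2-fold higher in enterocytes than in all other singlets and 0 lower. Ggt1, gamma-glutamyltransferase, was 61.4-fold higher (539 CPM), Ace, angiotensin converting enzyme, 50.8-fold (207 CPM), Mme, neprilysin, 25.9-fold (580 CPM) and Anpep, aminopeptidase N, 18.6-fold (963 CPM). Mep1a, the alpha subunit of meprin, did not pass the limit and stood at 61.4 CPM in enterocytes, against 499 in late-2 and 60.8 in late-1 progenitors. Its partner Mep1b ran the other way, at 929 CPM in enterocytes, against 360 in late-2 and 249 in late-1 progenitors. Among the disaccharidases, Lct, the lactase gene, stood at 346 CPM in enterocytes, against 28.3 in late-1 progenitors and 0 in late-2 progenitors (at least 192-fold higher than late-2 progenitors, at a floor of 3 counts over that class). Treh, trehalase, stood at 121 CPM, against 4.81 in late-2 and 7.53 in late-1 progenitors, while Mgam, maltase-glucoamylase, was closer at 477 CPM, against 345 and 290.

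Of 12 counted amino acid and peptide transporters, 11 were over 2-fold higher in enterocytes than in all other singlets. Slc15a1, the peptide transporter PEPT1, was 24.4-fold higher (76.9 CPM) and Slc6a19, the main neutral amino acid transporter, 23.5-fold (85.3 CPM). Slc7a9, of the cystine transporter, was level with the late progenitors: 225 CPM in enterocytes, against 219 in late-2 and 207 in late-1 progenitors. The exception was Slc1a1, a transporter of glutamate and aspartate, at 5.99 CPM in enterocytes, against 148 in late-2, 87.2 in late-1 progenitors and 44.7 in all other singlets (0.134 of the level in the last group, 0.0691 to 0.235).

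Nearly all genes of xenobiotic metabolism were higher. Of 23 counted genes 22 were over 2-fold higher in enterocytes, 17 were led by them, and the median log2 ratio was 3.30. Besides Cyp2b10, Cyp3a11 stood at 411 CPM in enterocytes, against 0.601 in late-2 and 6.78 in late-1 progenitors. Gsta1, a glutathione transferase, stood at 1164 CPM, against 57.1 in late-2 and 94.3 in late-1 progenitors. The carboxylesterase Ces2c was 20.5-fold above all other singlets. Abcb1a, the drug efflux pump P-glycoprotein, was the member that did not pass the limit (58.9 CPM in enterocytes, against 34.0 in all other singlets) and was higher in late-2 progenitors at 121 CPM. Nr1i3, the xenobiotic receptor CAR, was led by enterocytes at 93.8 CPM, against 4.21 in late-2 and 45.6 in late-1 progenitors. Nr1i2, the receptor PXR, was 2.24-fold above all other singlets at 32.9 CPM.

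Iron and mineral genes were dominated by ferritin. Fth1, the ferritin heavy chain, stood at 19441.5 CPM in enterocytes, against 5366 in late-2 and 9448 in late-1 progenitors, and was among the 10 most abundant nuclear-encoded transcripts of the class. Of 11 counted genes of the list, 5 were over 2-fold higher in enterocytes than in all other singlets and 0 lower. Some genes of iron uptake and export had low levels. Cybrd1, the duodenal ferric reductase, had 0 UMIs and Slc11a2, the importer DMT1, stood at 27.9 CPM. Slc40a1, ferroportin, stood at 3.99 CPM in enterocytes, against 64.3 in late-2 progenitors. In cells thinned to 1000 UMIs, Heph was found in 9.95% of enterocytes, against 1.74% of tuft and enteroendocrine cells, and Slc11a2 in 2.62%, against 0.348%. S100g, the calcium-binding calbindin D9k, was 8.01-fold above all other singlets at 150 CPM, with a UMI in 48.7% of enterocytes. Slc30a10, a manganese exporter, stood at 20.5 CPM with 41 UMIs.

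**Figure D2:**
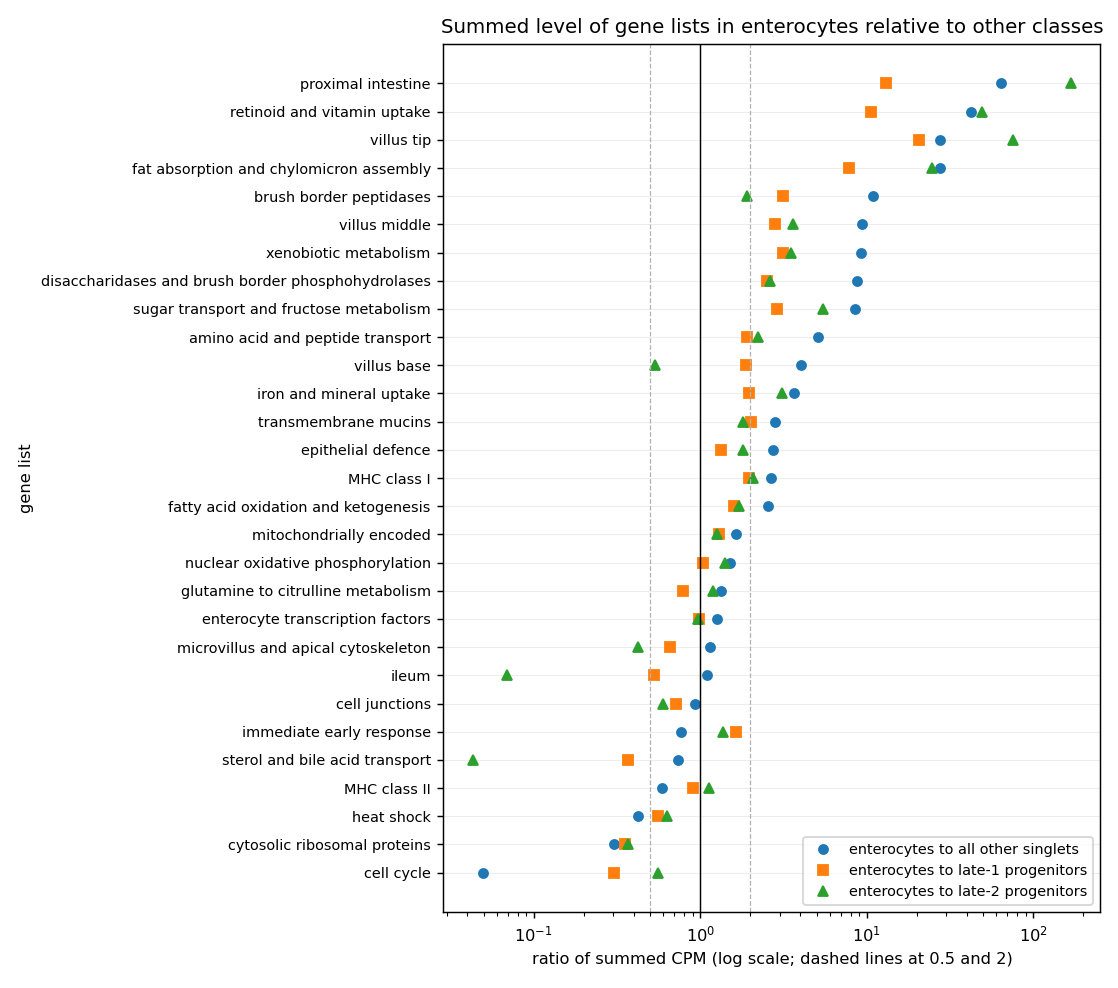
Ratio of the summed CPM of each gene list in enterocytes to that in all other singlets (circles), late-1 progenitors (squares) and late-2 progenitors (triangles), on a log axis with dashed lines at 0.5 and 2. The list of the proximal intestine is 63.7-fold above all other singlets and 168-fold above late-2 progenitors, while the ileum list is at 1.09 and 0.0690.

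Enterocytes and late-2 progenitors differed in genes that are known to mark position along the gut. Of 4746 genes counted between the 2 classes, 631 (13.3%) were over 2-fold higher in enterocytes and 692 (14.6%) lower. The median over these genes was -0.16 on the log2 scale (47.7% of the calls were higher, 64.8% with TMM factors, which moved the log2 ratios by 0.25). Genes of the proximal intestine summed to 58035 CPM in enterocytes, against 346 in late-2 progenitors. Fabp1 (30214 CPM) and Rbp2 (21151 CPM) supplied most of the enterocyte sum. Of the 11 genes, 10 were over 2-fold higher. The exception was Slc40a1. Genes of the ileum summed to 1902 CPM in enterocytes, against 27560 in late-2 progenitors, and 7 of 9 counted genes were over 2-fold lower.

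Fabp6, the ileal bile acid binding protein, made up most of that difference. It stood at 60.9 CPM in enterocytes, against 24030 in late-2 and 2275 in late-1 progenitors, and at 0.00253 of the late-2 level (0.00210 to 0.00303). Of its 122 UMIs in enterocytes, 78 (63.9%) came from 1 cell, and without that cell the level was 22.1 CPM. Slc10a2, the apical bile acid importer, stood at 0.998 CPM in enterocytes, against 114 in late-2 progenitors, and Tmigd1 had 0 UMIs in enterocytes, against 204 CPM in late-2 progenitors. The basolateral bile acid exporter subunits Slc51a and Slc51b were nevertheless present in enterocytes, at 253 and 159 CPM, against 747 and 350 in late-2 progenitors. Both were over 2-fold above all other singlets. Of 12 counted genes of sterol and bile acid transport as a whole, 8 were higher and 3 lower than in all other singlets, and Npc1l1, the cholesterol importer of the brush border, was 7.61-fold higher at 181 CPM. Clec2h, a C-type lectin of the ileum list, was higher in enterocytes at 978 CPM, against 806 in late-2 progenitors.

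Single cells divided in the same way. All 191 enterocytes had more Fabp1 than Fabp6 UMIs, while of 203 late-2 progenitors 0 did and 201 had more Fabp6. Late-1 progenitors held both kinds, 433 cells with more Fabp1 and 159 with more Fabp6. With every cell thinned at random to 1000 UMIs, enterocytes had 10 to 100 UMIs of the proximal list (median 59) and 0 to 7 of the ileum list (median 2), and 0 cells had more ileal than proximal UMIs. The other genes that were furthest above late-2 progenitors were Rbp2, Apoa4, Reg1, Leap2, Cyp3a11, Creb3l3, Mme, Lct, Slc2a2, Cyp2b10 and Adh1. Furthest below were, after Fabp6, Tmigd1, Suox (0.499 CPM in enterocytes, against 150 in late-2 progenitors), Mgat4c (7.49, against 739), Fgfbp1 (4.49, against 420) and Scd2 (2.50, against 230).

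**Figure D3:**
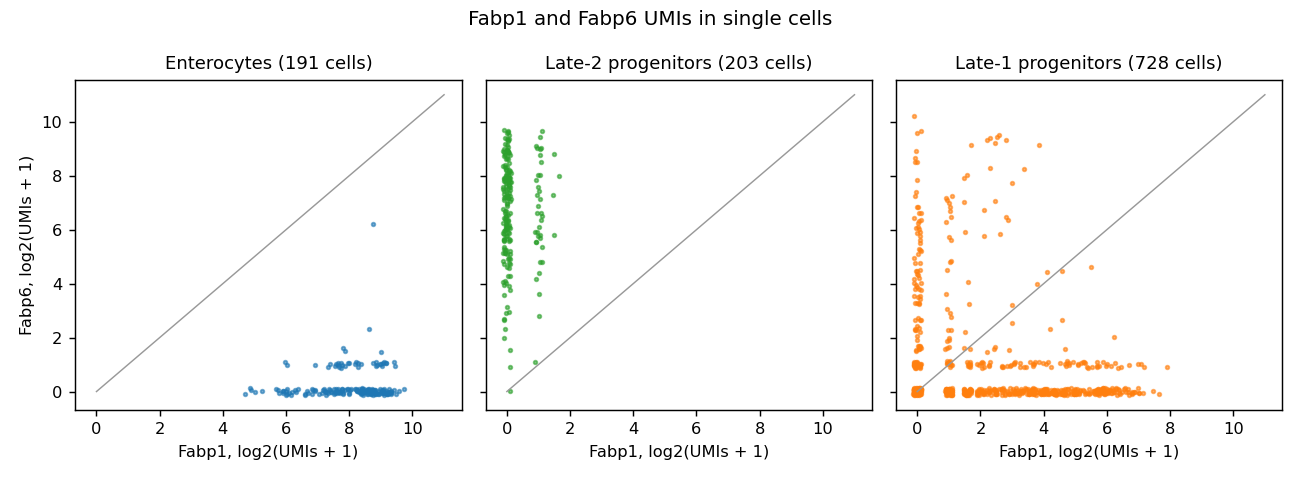
UMIs of Fabp1 (horizontal) and Fabp6 (vertical) in single cells, both as log2(UMIs + 1) with a small random offset, for enterocytes, late-2 progenitors and late-1 progenitors; the grey line marks equal counts. All 191 enterocytes lie below the line, 201 of 203 late-2 progenitors above it, and late-1 progenitors on both sides.

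Late-1 progenitors were the next class for 203 of the 292 genes led by enterocytes (69.5%). Of 7730 genes counted between enterocytes and late-1 progenitors, 498 (6.44%) were over 2-fold higher in enterocytes and 1306 (16.9%) lower. The median over these genes was -0.32 on the log2 scale (27.6% of the calls were higher, 44.9% with TMM factors). Fat absorption genes were 7.82-fold higher in sum. Fatty acid oxidation genes (1.59-fold) and nuclear genes of oxidative phosphorylation (1.04-fold) differed less from late-1 progenitors.

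Genes placed along the villus gave no single position. The villus base gene Reg1, a regenerating-family lectin, stood at 10195 CPM in enterocytes, against 29.5 in late-2 and 965 in late-1 progenitors, and Il18, an epithelial cytokine, at 690 CPM, against 52.3 and 186. Reg3b and Reg3g, antibacterial lectins of the same list, were far lower than in late-2 progenitors: 1735 CPM in enterocytes, against 27322, and 733 CPM, against 7528. The 10 enterocytes highest in Reg3b held 53.1% of its UMIs. All 7 genes of the villus middle, sugar and amino acid transporters, were over 2-fold above all other singlets. Of the villus tip list, Apoa4 and Creb3l3, a transcription factor of lipid metabolism (407 CPM in enterocytes, against 14.6 in all other singlets), were high. The remaining tip genes were not: Ada, adenosine deaminase, had 1 UMI, Nt5e and Slc28a2, a nucleotidase and a nucleoside transporter, had 0, and Enpp3, Egfr and Klf4 stood at 2.99, 3.99 and 28.4 CPM in enterocytes, against 5.90, 11.5 and 89.4 in all other singlets.

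Transcription factors of a list written for enterocytes went both ways. The list was chosen with earlier results of these data known, so its shares do not speak for transcription factors in general. Of 19 counted, 7 (36.8%) were over 2-fold higher in enterocytes than in all other singlets and 3 lower. Of all counted genes 10.3% were higher and 38.8% lower. The median log2 ratio of the list was 0.60, against -0.54 for all counted genes. Hnf4g was 3.62-fold higher at 314 CPM, while its paralog Hnf4a stood at 77.9 CPM, against 119 in all other singlets. Maf was 7.59-fold higher at 117 CPM and Ppargc1a, a coactivator of mitochondrial genes, 4.30-fold at 39.9 CPM. Cdx1 was lower at 44.9 CPM, against 177 in all other singlets, and Cdx2 stood at 149 CPM, against 171. Gata4, a factor of the proximal intestine, stood at 42.4 CPM in enterocytes, against 1.20 in late-2 and 36.9 in late-1 progenitors. Hes1, a Notch target, was lower at 26.4 CPM, against 62.7 in all other singlets.

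Most microvillus genes were higher, while 3 of the 4 keratins named here were lower than in the late progenitors. Of 19 counted genes of the microvillus and apical cytoskeleton 14 were over 2-fold higher in enterocytes and 1 lower. Vil1, the actin bundler villin, was 4.96-fold higher (817 CPM), Pls1, plastin 1, 8.62-fold (694 CPM), Cdhr2, of the links between microvilli, 6.94-fold (247 CPM) and Pdzk1, an apical scaffold protein, 44.2-fold (136 CPM). Krt20 was 5.15-fold higher at 800.0 CPM. The other simple keratins were lower than in the late progenitors: Krt8 stood at 2252 CPM in enterocytes, against 10228 in late-2 and 6086 in late-1 progenitors, and Krt19 at 1295 CPM, against 7577 and 4929. Krt18 stood at 69.4 CPM in enterocytes, against 744 in late-2 progenitors and 1077 in all other singlets (0.0644 of the level in the last group, 0.0541 to 0.0761). Of 15 junction genes 1 (6.67%), Cdh17 (liver-intestine cadherin, 2.44-fold), was higher, near the 10.3% of all counted genes. Cldn2 and Cldn4 were lower, while 38.8% of all counted genes were. The summed junction genes stood at 0.936 of the level in all other singlets, and at 1.16 with TMM factors.

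Energy metabolism differed less than absorption. Of 17 counted genes of fatty acid oxidation and ketogenesis, 11 were higher and 0 lower, led by Acaa1b, a peroxisomal thiolase, at 84.1-fold (69.9 CPM). Of 76 counted nuclear genes of oxidative phosphorylation, 1 was past the limit in each direction, with a median log2 ratio of 0.60. The 13 mitochondrially encoded genes had a median of 0.69 with 0 past the limit. In sum these 13 stood at 1.65-fold the level in all other singlets, and at 2.04-fold with TMM factors, past the limit. In the route from glutamine to citrulline, Arg2, mitochondrial arginase, was 8.77-fold higher (1872 CPM), while Cps1, the entry enzyme of the urea cycle, was lower at 136 CPM, against 461 in all other singlets, and Glul and Ass1 were lower as well.

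In host defence, 6 of 7 MHC class I genes were over 2-fold higher, among them H2-Q2 at 580 CPM, against 43.0 in all other singlets, and H2-Q1 at 113 CPM, against 2.43. MHC class II genes were low, at 39.9 CPM in sum, against 68.0. Pigr, which carries immunoglobulin A across the cell, was 2.54-fold higher at 1956 CPM and Ccl25, which attracts lymphocytes to the small intestine, 3.25-fold at 2068 CPM. Late progenitors shared both. In cells thinned to 1000 UMIs, Ccl25 was found in 80.6% of enterocytes, 75.9% of late-2 and 79.4% of late-1 progenitors. Pigr was found in 84.3%, 51.7% and 64.4% of these classes. Dmbt1 was lower at 63.9 CPM, against 284 in all other singlets, and Duox2 and Duoxa2, of the dual oxidase complex, had 1 and 2 UMIs.

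All 12 cell cycle genes were over 2-fold lower, at 61.4 CPM in sum, against 1242 in all other singlets, with Top2a, a topoisomerase of dividing cells, at 3 UMIs in enterocytes, against 158 CPM in all other singlets. Of 80 ribosomal protein genes 78 were over 2-fold lower than in all other singlets, at 56206 CPM in sum, against 185421, and 71 of 76 and 75 of 78 counted were over 2-fold lower than in late-2 and in late-1 progenitors. Heat shock genes summed to 4462 CPM, against 10621, and 6 of 10 were over 2-fold lower, while 38.8% of all counted genes were. With TMM factors the heat shock ratio was 0.521 and so inside the limit. Of the immediate early genes 0 of 12 were higher and 2 lower than in all other singlets, while 10.3% of all counted genes were higher and 38.8% lower. Their median log2 ratio was -0.45, near the -0.54 of all counted genes. Against late-2 and late-1 progenitors 8 of 11 and 6 of 12 were higher, while 13.3% and 6.44% of all counted genes were. Among the 12 lowest genes, Ghrl is enteroendocrine and Top2a is of the cell cycle. Reg4 was highest in enteroendocrine cells (1875 CPM) but also stood at 970 CPM in Paneth and 293 CPM in goblet cells. AY761184, Clps, Mmp7, Defa30, Defa26, Defa24, Itln1, Defa29 and Mptx2 had Paneth cells as the class of highest level. Defensin genes are near-identical copies, so counts of single members are uncertain.

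Among the 191 enterocytes the levels of these programmes were related. Spearman's rho between fat absorption and brush border peptidases over cells was 0.47, and that between fat absorption and xenobiotic metabolism 0.55, with 0.47 and 0.49 in 186 cells thinned to 3000 UMIs. Apoa4 ranged from 0 to 15313 CPM with a median of 3520. Cells with more Apoa4 had less of the cytosolic ribosomal proteins (rho -0.82), of Krt19 (rho -0.73) and of Krt8 (rho -0.71) and more Fabp2 (rho 0.54). In thinned cells these were -0.77, -0.61, -0.55 and 0.55. The share of mitochondrial UMIs moved with Apoa4 as well (rho 0.49), and without the 18 cells above 15% the rho of Apoa4 with the ribosomal proteins was -0.81 and with Krt19 -0.71. Its part in the relation was not tested. These values share 1 library and the total of each cell, and describe it.

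**Figure D4:**
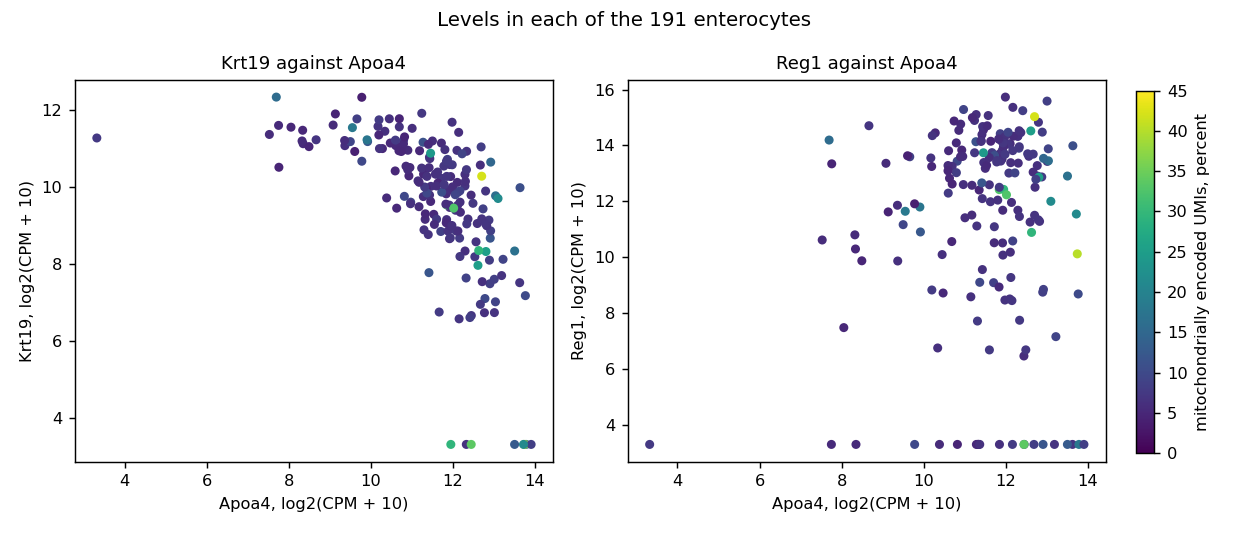
Krt19 (left) and Reg1 (right) against Apoa4 in the 191 enterocytes, each as log2(CPM + 10), with colour for the percentage of mitochondrially encoded UMIs. Krt19 falls off as Apoa4 goes up (rho -0.73), whereas for Reg1 the rho is 0.01.

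Cells were also ordered by the villus tip list minus the villus base list (log2 of the summed CPM plus 10). Apoa4 supplied 3651 of the 4094 CPM of the tip list and Creb3l3 407, so that the tip side of this order is largely Apoa4 and its genes are no separate support for the relations above. Of 3231 genes with a UMI in at least 30% of enterocytes, the highest in rho were Ggt1 (0.55), Gda, Selenop, Lct, Fabp2, Leap2, Cyp3a11 and Apob (0.48). The lowest were Krt19 (-0.66), Gpx1, Rpl30, Krt8, Rps13, Lgals2, Rpl18 and Rpl13 (-0.59). The median absolute rho was 0.09. The rho of Reg1, 10195 of the 22255 CPM of the base list, with Apoa4 was 0.01, and that between the tip and base lists -0.15 (-0.08 in thinned cells). Reg1 itself ranged from 0 to 54286 CPM with a median of 7272, and 88.5% of enterocytes had a UMI. Along the proximal minus ileal lists the strongest gene was Rbp2 (rho 0.58, with Rbp2 left out of the list), followed by Cbr1, Fabp2, Ppa1, Fabp1, Scp2, Fth1 and Uqcrfs1. At the low end, Nrip1, Tspan8, Npc1l1, Sptan1, Aoc1, Spint2, Malat1 and Ptprf lay between -0.28 and -0.23, against a median absolute rho of 0.06. Within the class the proximal and ileum lists had a rho of 0.11 with each other (0.02 in thinned cells).

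How many cells showed a gene depended on depth. At 1000 UMIs per cell, 41 of 234 genes of the function lists had a UMI in over 50% of enterocytes, at 3000 UMIs 92 and without thinning 155. Tuft and enteroendocrine cells, taken to lack the markers and the absorptive genes Rbp2 and Fabp6, served as the background for these (287 cells, median 5805 UMIs, against 11039 in enterocytes). At 1000 UMIs Apoa1 and Rbp2 were found in all enterocytes (98.1% to 100%), against 2.09% and 8.01% of tuft and enteroendocrine cells. Sis was found in 89.0% of enterocytes, against 12.2% of tuft and enteroendocrine cells, the highest share of the 4 markers in those cells. These classes differed in the summed markers, at 337 CPM in enteroendocrine and 32.6 CPM in tuft cells. Of the former sum, Apoa1 made up 47.1 and Apoa4 5.65 CPM. The share for Sis therefore need not be background, and its source was not tested. Apoa4 was found in 87.4% of enterocytes, against 0.348%, and Alpi in 38.7% (31.8% to 46.0%), against 0 of 287 cells, which allows a share of up to 1.05% of cells with a UMI at this depth. Unthinned, Alpi was found in 89.5% of enterocytes, against 0.348%. Fabp6, at 3.66% of enterocytes, against 3.83%, was at background.

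The intestinal multiplets, 3671 barcodes of another library that entered none of the sums above, were used to describe which genes vary with the 4 markers. Spearman's rho over multiplets between a gene and the summed markers, each as a share of the barcode's UMIs, had a median of 0.35 for 288 genes led by enterocytes, markers left out, and 281 of them were above 0.1. For all 11302 counted genes the median was -0.02 and 1912 (16.9%) were above 0.1. Among lists, brush border peptidases (median 0.53), fat absorption (0.51) and sugar genes (0.50) were highest, and ribosomal proteins (-0.37), goblet markers (-0.30) and stem markers (-0.30) lowest. Genes of the ileum were positive as well (median 0.39, Fabp6 0.25). Krt8 (0.37) and Krt19 (0.38) were positive, while Krt18 was at -0.47. The share of markers had a rho of 0.01 with the UMIs per multiplet.

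**Figure D5:**
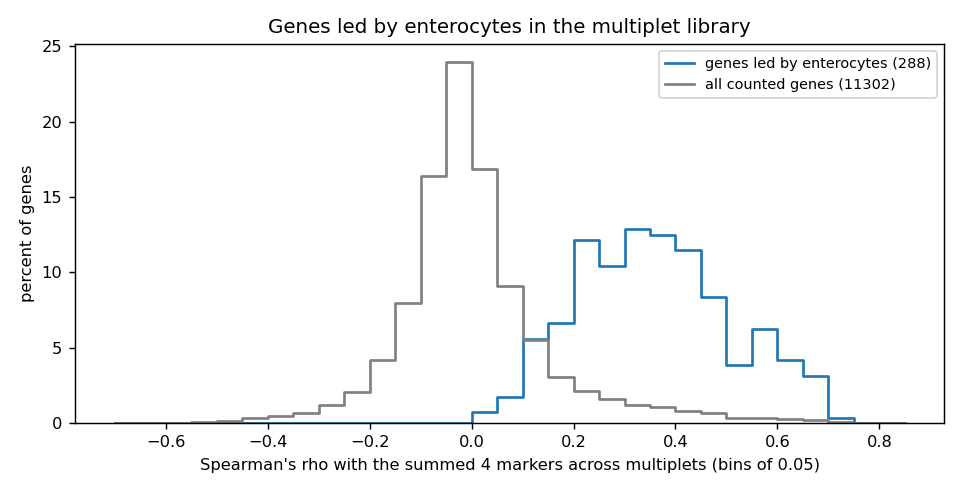
Distribution of Spearman's rho between each gene and the summed 4 enterocyte markers over 3671 multiplets, as percent of genes in bins of 0.05, for 288 genes led by enterocytes and for all 11302 counted genes. The led genes centre on 0.35 and all counted genes on -0.02.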

How the data were processed

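Per the labels and the submitters' processing notes, the authors made 3′ droplet libraries, processed them with Cell Ranger 4.0.0 on mm10 and deposited counts of UMIs per gene and barcode, with a class and a quality flag per barcode. The labels do not give the method behind class and flag. Counts of passing singlets were summed per class and scaled to CPM. A gene counted with at least 50 UMIs in either group and was called past 2-fold. Intervals are exact conditional 95% intervals of the ratio of 2 counts and cover counting error only. With 1 library per class and classes drawn from the same cells, no test was made. Genes were named by membership of lists, by rank of ratio at 100 CPM or more, by abundance and by rank of Spearman's rho. Members and lists were chosen with earlier results of these data known. Cells were thinned to 1000 UMIs (alternative 3000). Scrublet in scanpy 1.11.5 marked doublets, which stayed in. TMM factors came from edgeR 4.0.16 in R 4.3.3. Other steps used Python 3.11.15, numpy 2.4.6, scipy 1.17.1, pandas 2.3.3 and matplotlib 3.10.9. Counting and calling were tested on simulated data.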

Additional observations from a re-analysis of the deposited data

How the results depend on the processing

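No paired analysis was possible because each class comes from 1 library and no test was made. With the class itself and the 2-fold limit kept, 412 of 414 calls of named genes over 9 settings and 202 of 203 calls of lists over 7 settings stayed past 2-fold. The exceptions were Fabp6 (0.705) and Mgat4c (0.562) against singlets without late-1 and late-2 progenitors, and heat shock with TMM factors (0.521). Many of the named genes were picked as extremes of these same ratios and lay far past 2-fold. Their calls could hardly be lost, and these counts do not speak for genes near the limit. Counts of genes moved most with the limits. Against all other singlets, the higher genes numbered 1797 with no minimum, 1835 at 1.5-fold and 463 at 4-fold, and the lower ones 2397 at 4-fold. Against late-2 progenitors, the higher genes numbered 310 at 200 UMIs, 1129 with no minimum, 999 at 1.5-fold and 277 at 4-fold. The lower ones numbered 454 with TMM factors, 1269 at 20 UMIs, 236 at 200 UMIs, 2432 with no minimum, 1363 at 1.5-fold and 156 at 4-fold. Against late-1 progenitors, the higher genes numbered 259 at 200 UMIs, 1277 with no minimum, 910 at 1.5-fold and 160 at 4-fold. The lower ones numbered 861 with TMM factors, 575 at 200 UMIs, 2128 with no minimum, 2604 at 1.5-fold and 261 at 4-fold. Genes led by enterocytes numbered 481 at 1.5-fold and 108 at 4-fold. Genes with a UMI in over 50% of enterocytes numbered 92 at 3000 UMIs and 155 without thinning.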
